A study of Drosophila melanogaster with 9 samples.

Results

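The digestive enzyme genes described here are 44 of the 17874 genes in the count table of larval blood cells of Drosophila melanogaster. They were chosen by symbol alone: the Jonah serine proteases (Jon genes) and their relative yip7, the trypsins whose symbols end in Try, the maltases of the Mal-A series, the amylases Amy-p and Amy-d, and the alpha-mannosidases LManI to LManVI. All 44 had counts, and they comprise 17 Jonah genes (yip7 included), 11 trypsins, 8 maltases, 2 amylases and 6 alpha-mannosidases. The name digestive suits the proteases, amylases and maltases, whereas the alpha-mannosidases are annotated as lysosomal enzymes and enter by their symbols.

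The study sequenced RNA of hemocytes, the blood cells, bled from third-instar larvae, in 3 groups of 3 biological replicates with 300 larvae pooled per library and experiments at 25 °C. The control was the strain W1118. The other groups carried UAS-BCR-ABLP210 (p210 below), the human fusion kinase of chronic myeloid leukaemia, or UAS-BCR-ABLT315I (T315I below), the form with a kinase-domain substitution that blocks imatinib binding. A UAS transgene is transcribed only where a GAL4 driver supplies its activator, and the labels name neither the driver nor the cells it acts in. The label of the control names no transgene or driver, so an effect of the fusion kinase and one of strain background cannot be told apart.

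Larval digestion takes place in the midgut, an epithelial tube whose cells secrete enzymes into the gut lumen. Jonah proteases and trypsins cut dietary proteins, amylases split starch into maltose and short glucose chains, and maltases release glucose from these. Lysosomal alpha-mannosidases remove mannose from glycoproteins that are being degraded. In the fly, transcripts of the amylases and maltases are known to fall when sugar is plentiful.

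The genes lie in tandem clusters, given here in dm6 coordinates. The 3 Jon25B genes lie on 2L between 4949941 and 4955144, LManIII to LManVI on 2L between 8765273 and 8781252, and LManI with LManII on 2L between 10452677 and 10462472, 1.67 Mb further along. On 2R lie the 8 Mal-A genes (8449664 to 8473961), the 11 trypsins (11336840 to 11357537), both amylases (17118636 to 17126369) and Jon44E, 22 genes in all. Chromosome arm 3L holds the Jon65A genes with yip7 (6035216 to 6054443), Jon66Ci and Jon66Cii (8391540 to 8393649) and Jon74E, and 3R holds the 3 Jon99C genes (29922216 to 29926189) and the Jon99F pair (30487016 to 30489895). Each gene had at least 96.3% of its span free of other genes, and 40 had all of it free. Neighbours with near-identical sequence, such as Amy-p with Amy-d, deltaTry with gammaTry and the paired Jon genes, can share reads, so their single values are uncertain.

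Libraries held 5.40 to 9.84 M counts in the control, 14.48 to 18.16 M in p210 and 13.86 to 15.72 M in T315I, so that 3 counts correspond to 0.284 to 0.553 CPM in the control and 0.17 to 0.22 CPM in the other groups. CPM are counts per M counts of a library's total after TMM scaling. All 10 hemocyte markers were counted, and their summed level was 26520 to 30990 CPM in the control, 31530 to 49200 in p210 and 36250 to 46720 in T315I. Markers of other tissues were present too. All 7 fat body markers were counted, at 38640 to 97590 CPM in the control against 4020 to 5941 in p210 and 7726 to 11730 in T315I, and all 6 muscle markers, at 807.5 to 1875 CPM against 151 to 169.3 and 189 to 230.8. The fat body sum was above the hemocyte sum in every control library and below it in every transgene library. These are bulk samples, in which fewer cells of a type and less RNA per cell cannot be told apart.

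Nearly all of these genes were highest in a control library. That held for 43 of the 44 genes (97.7%), against 51.1% of the 13458 genes with counts. Control replicate 1 was the highest library for 20 genes, control replicate 2 for 7 and control replicate 3 for 16. The exception was gammaTry, whose highest level, 0.565 CPM, was in T315I replicate 1 and which had few counts anywhere. In every p210 library all 44 genes together summed to between 512.1 and 657.2 CPM and in every T315I library to between 599 and 687.9 CPM, against 2368 to 4486 CPM in the control. LManI and LManII held more than the other 42 genes in 8 of the 9 libraries, the exception being control replicate 3 (1344 of 2978 CPM). Without them the remaining 42 genes summed to 569 to 2000 CPM in the control, 64.1 to 242 CPM in p210 and 78.4 to 117 CPM in T315I, again with no overlap between the control and either other group.

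**Figure D1:**
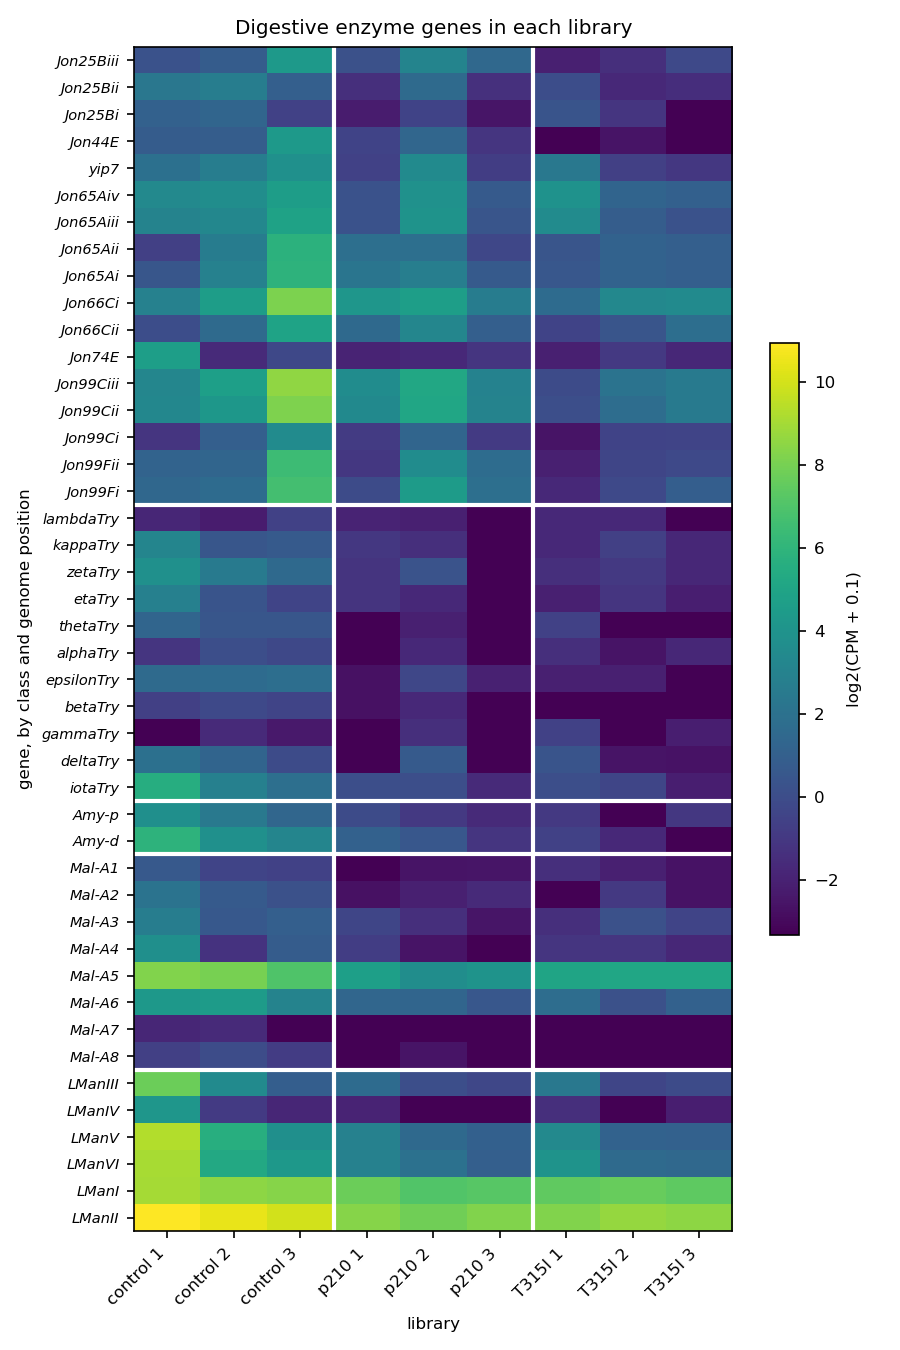
Level of each of the 44 genes (rows, by class and genome position) in the 9 libraries (columns), as log2 of CPM plus a constant of 0.1. White lines part the classes and groups. The Jonah genes are brightest in control replicate 3 and the alpha-mannosidases LManIII to LManVI in control replicate 1, and 43 of 44 rows are highest in a control library.

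Over all 44 genes, the libraries of p210 lay below every control library for 21 genes and above for none, and those of T315I lay below for 27 and above for none. Of all genes with counts, 26.4% were lower without overlap in p210 and 23.8% in T315I. Some of these separations rest on about 3 counts in the shallower control libraries. For example, alphaTry had 2 counts in control replicate 1, 3 in p210 replicate 2 and 4 in T315I replicate 1. In an edgeR quasi-likelihood fit without a filter, with Benjamini-Hochberg adjustment over 13458 genes, 23 of the 44 fell in p210 and 23 fell in T315I, against 24.2% and 21.2% of all genes. None rose. The comparisons share their 3 control libraries.

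A filter on low counts kept 34 of the 44 genes among 9978 tested. In the edgeR fit of these, 19 fell in p210, 0 rose and 15 were not called at an adjusted p under 0.05, where 30.3% of all tested genes fell and 26.9% rose. In T315I, 28 fell, 0 rose and 6 were not called, where 28.7% of all tested genes fell and 20.5% rose. Their median log2 fold change was -2.86 in p210 and -3.66 in T315I, beside 0.05 and -0.02 over all genes tested. Of the 34 genes, 15 would not have passed on the transgene libraries alone, since fewer than 3 of these reached the filter's minimum of 0.69 CPM, and their passing leans on a higher control. Among the other 19 genes, 9 fell in p210 and 16 in T315I.

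**Figure D2:**
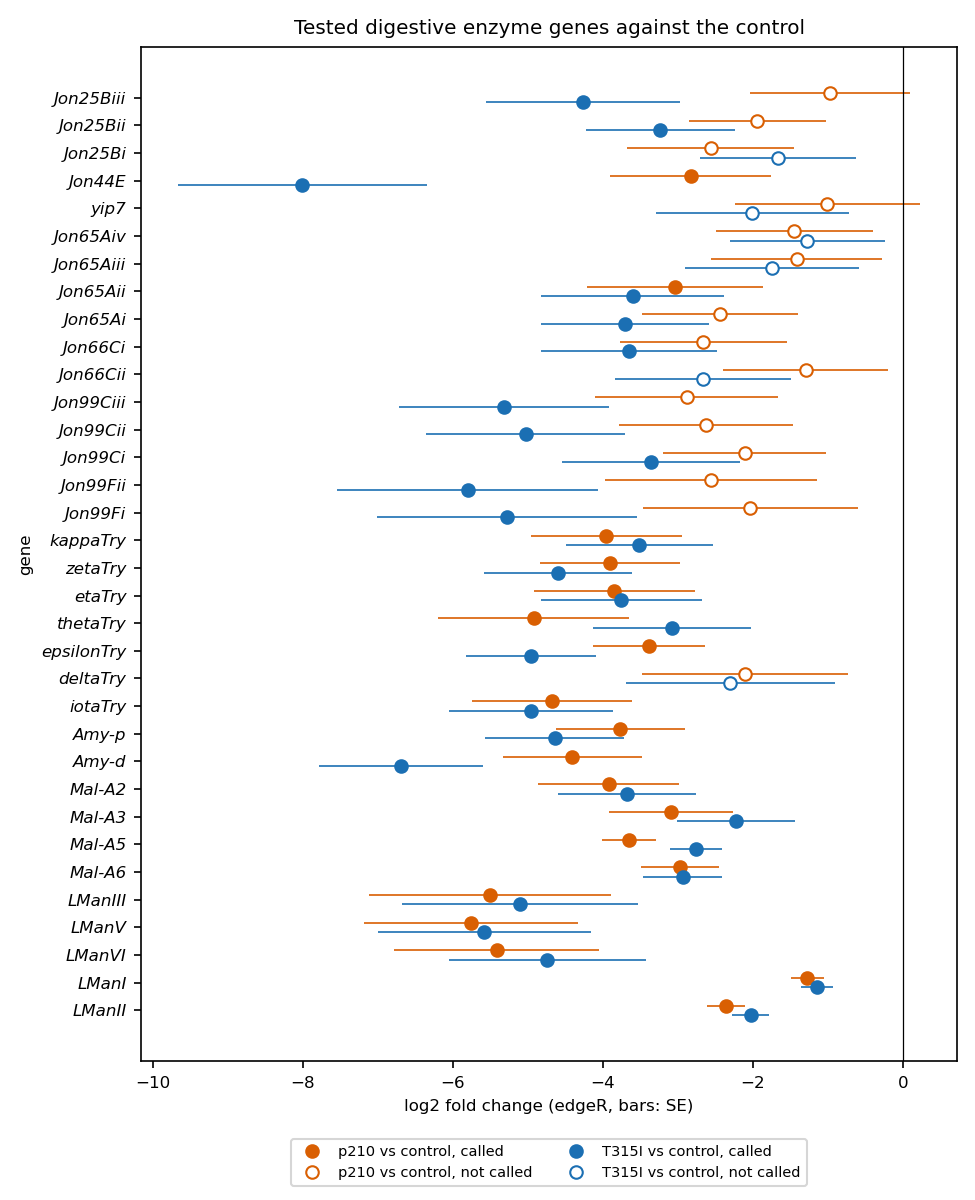
Log2 fold change of the 34 tested genes (rows) in p210 (orange) and T315I (blue) against the control, with standard errors as bars, from edgeR. Filled points have an adjusted p under 0.05. All points lie below 0, and the open points are mostly Jonah genes in p210.

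The share of genes called differed between the classes. All 5 tested alpha-mannosidases, both amylases and all 4 tested maltases fell in p210 and in T315I, and 6 of 7 tested trypsins fell in each. Of the 16 tested Jonah genes, 2 fell in p210 and 11 in T315I. Both amylases, 5 of the 6 called trypsins and 2 of the 4 called maltases were among the genes that needed the control libraries to pass. So were Jon44E, called in both comparisons, and Jon25Bii and Jon99Ci, called in T315I. Over all members, without the filter, 5 of 6 alpha-mannosidases, both amylases, 7 of 8 maltases, 8 of 11 trypsins and 1 of 17 Jonah genes fell in p210. In T315I, 3 of 6 alpha-mannosidases, both amylases, 7 of 8 maltases, 7 of 11 trypsins and 4 of 17 Jonah genes fell without the filter. Libraries within a group also differed by class: 14 of 17 Jonah genes peaked in control replicate 3, whereas all 6 alpha-mannosidases, both amylases, 5 of 8 maltases and 6 of 11 trypsins peaked in control replicate 1.

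**Figure D3:**
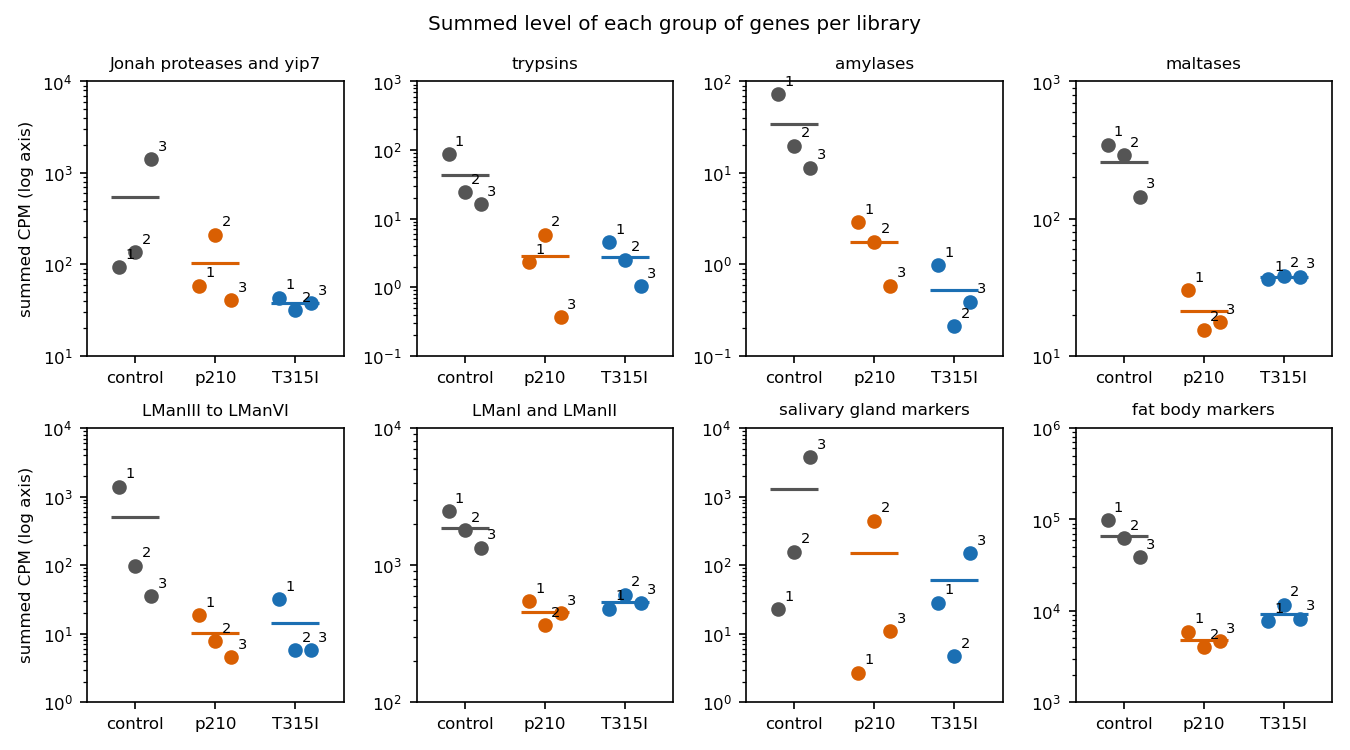
Summed CPM (log axis) of each class, of the separate LMan clusters and of salivary gland and fat body markers in each library. Points are libraries, numbers are replicates and lines are group means. The Jonah sum and the salivary gland sum are each highest in control replicate 3 and, among the p210 libraries, in replicate 2, whereas the other classes are highest in control replicate 1.

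The Jonah proteases were very uneven between the control libraries, and their mean summed level was lowest in T315I, where it overlapped that of p210. Their summed level was 92.8, 136 and 1427 CPM in control replicates 1, 2 and 3, 58.7, 211 and 40.8 CPM in p210 and 43.4, 31.5 and 37.7 CPM in T315I (values of a group are given in the order of replicates 1, 2 and 3 throughout). Control replicate 3 stood 10-fold or more above the other control libraries, p210 replicate 2 stood above control replicates 1 and 2, and all T315I libraries stood below all control libraries. The salivary gland markers, which encode the glue proteins, had the same high libraries in the control and p210: 5 of 6 were counted (Sgs4 was at 0) and summed to 22.9, 157 and 3731 CPM in the control, 2.71, 445 and 10.9 CPM in p210 and 28.4, 4.71 and 150.2 CPM in T315I. In T315I the salivary gland sum was highest in replicate 3 and the Jonah sum in replicate 1. The part of salivary gland RNA in the Jonah values was not tested.

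Jon99Ciii and Jon99Cii, adjacent genes for serine proteases, were among the Jonah genes with the most counts. Jon99Ciii stood at 9.41, 26.8 and 388 CPM in the control, 12.4, 37.5 and 7.98 in p210 and 0.847, 4.29 and 5.48 in T315I. Jon99Cii stood at 9.78, 18.9 and 295 CPM in the control, 10.6, 34.1 and 8.20 in p210 and 0.988, 3.38 and 5.54 in T315I. For both genes the T315I libraries lay below all control and all p210 libraries, while p210 overlapped the control. In T315I, Jon99Ciii fell by 5.32 (SE 1.40) on the log2 scale with an edgeR adjusted p of 0.0132, and Jon99Cii fell by 5.03 (SE 1.33) with an edgeR adjusted p of 0.0136. Both T315I calls were lost with no filter and without T315I replicate 2, and that of Jon99Cii also without control replicate 3. The edgeR adjusted p was then 0.0502 to 0.0591. In p210 the log2 differences were -2.89 (SE 1.22, edgeR adjusted p = 0.0671) and -2.63 (SE 1.16, edgeR adjusted p = 0.0787). The third gene of the cluster, Jon99Ci, stayed below 12 CPM in every library.

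The Jon99F pair also had a wide gap between control replicate 3 and the other libraries. Jon99Fi stood at 2.58, 3.09 and 104 CPM in the control, 0.848, 22.7 and 3.59 in p210 and 0.212, 0.774 and 1.83 in T315I. Jon99Fii stood at 2.21, 2.43 and 87.5 CPM in the control, 0.396, 12.3 and 3.15 in p210 and 0.141, 0.703 and 0.783 in T315I. Every T315I library was below every control library for both genes, and p210 replicate 2 was above control replicates 1 and 2. In T315I, Jon99Fi fell by 5.28 (SE 1.73, edgeR adjusted p = 0.0307) on the log2 scale and Jon99Fii fell by 5.80 (SE 1.74, edgeR adjusted p = 0.0218). Both T315I calls were lost with no filter, with hemocyte-marker scaling, without control replicate 3 and without any 1 T315I library. The edgeR adjusted p over these settings was 0.0524 to 0.34. In p210 their log2 differences were -2.04 (SE 1.43, edgeR adjusted p = 0.247) and -2.56 (SE 1.42, edgeR adjusted p = 0.148).

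Jon66Ci and Jon66Cii, a pair on 3L, peaked in the same control library. Jon66Ci stood at 7.75, 24.3 and 277 CPM in the control, 17.9, 25.1 and 6.22 in p210 and 3.11, 10.2 and 11.4 in T315I. Jon66Cii stood at 0.922, 2.98 and 30.4 CPM in the control, 2.88, 9.42 and 1.90 in p210 and 0.635, 1.27 and 3.52 in T315I. Control replicate 1 was within the range of the T315I libraries for both genes, so no group was separate from the control. In T315I, Jon66Ci fell by 3.65 (SE 1.17, edgeR adjusted p = 0.028) on the log2 scale, and its difference in p210 was -2.66 (SE 1.11, edgeR adjusted p = 0.065). Its T315I call was lost with no filter, in a fit of the 2 groups, with the replicate block and with hemocyte-marker scaling. It was also lost without control replicate 3 or without any 1 T315I library, and edgeR adjusted p over these settings was 0.0665 to 0.288. Neither difference of Jon66Cii was called, at -2.67 (SE 1.17, edgeR adjusted p = 0.0844) in T315I and -1.30 (SE 1.10, edgeR adjusted p = 0.335) in p210.

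Within the Jon65A cluster 2 patterns occurred side by side. Jon65Ai stood at 1.29, 7.72 and 60.3 CPM in the control, 4.58, 6.80 and 1.54 in p210 and 1.34, 2.11 and 1.89 in T315I. Jon65Aii stood at 0.553, 6.28 and 57.7 CPM in the control, 3.62, 3.54 and 0.732 in p210 and 1.27, 2.18 and 1.89 in T315I. These neighbours were high in control replicate 3 only, and control replicate 1 was below every T315I library. In T315I, Jon65Ai fell by 3.71 (SE 1.12, edgeR adjusted p = 0.0223) and Jon65Aii fell by 3.61 (SE 1.22, edgeR adjusted p = 0.0341) on the log2 scale. Both T315I calls were lost with no filter, in a fit of the 2 groups and with the replicate block. They were also lost without control replicate 3 or without any 1 T315I library, and edgeR adjusted p over these settings was 0.0522 to 0.375. In p210, Jon65Aii fell by 3.04 (SE 1.18) with an edgeR adjusted p of 0.0498, a call lost under 10 of the other settings tried, and Jon65Ai differed by -2.44 (SE 1.04, edgeR adjusted p = 0.0703).

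Jon65Aiii, Jon65Aiv and yip7, in the same cluster, were high in 1 library of each group carrying a transgene. Jon65Aiii stood at 8.12, 9.81 and 30.3 CPM in the control, 1.13, 15.9 and 1.24 in p210 and 11.7, 1.76 and 1.11 in T315I. Jon65Aiv stood at 10.5, 12.7 and 24.2 CPM in the control, 1.13, 14.9 and 1.54 in p210 and 15.5, 2.32 and 1.96 in T315I. The levels of yip7, a protease gene related to the Jonah family, were 3.69, 6.51 and 14.4 CPM in the control, 0.565, 11.3 and 0.512 in p210 and 5.22, 0.563 and 0.391 in T315I. For all of them, p210 replicate 2 and T315I replicate 1 were within the control range, and the other 4 libraries of those groups were below every control library. None was called in either comparison, with log2 differences of -1.42 (SE 1.14), -1.45 (SE 1.04) and -1.01 (SE 1.23) in p210 and of -1.75 (SE 1.16), -1.28 (SE 1.04) and -2.01 (SE 1.29) in T315I. Without p210 replicate 2, all were called lower in p210, with edgeR adjusted p of 0.0264, 0.02 and 0.0293. Without T315I replicate 1, none of them was called in T315I.

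The remaining Jonah genes, chosen for mention after their values were seen, had lower levels. Jon44E, a protease gene on 2R, stood at 1.66, 1.76 and 21.3 CPM in the control, 0.622, 2.55 and 0.366 in p210 and 0, 0.0703 and 0 in T315I. The control libraries held 250 counts and the T315I libraries 1, so that the scaled ratio was 436 (95% counting interval 77.6 to 17300), and Jon44E fell in T315I with an edgeR adjusted p of 0.00613. In p210 it fell by 2.83 (SE 1.07) on the log2 scale with an edgeR adjusted p of 0.0455, a call lost without control replicate 3 (log2 difference -0.57, edgeR adjusted p = 0.587). It was also lost without p210 replicate 1 or 3, with no filter, in a fit of the 2 groups and with the replicate block, at edgeR adjusted p of 0.071 to 0.188. In T315I, Jon25Bii fell by 3.24 (SE 0.99, edgeR adjusted p = 0.0235) and Jon25Biii fell by 4.27 (SE 1.29, edgeR adjusted p = 0.0226). Jon44E and Jon25Bii needed the control libraries to pass the filter. The call of Jon25Biii was lost without control replicate 3, T315I replicate 1 or T315I replicate 2, at edgeR adjusted p of 0.0709 to 0.182. That of Jon25Bii was lost without control replicate 2, T315I replicate 2 or T315I replicate 3. Jon74E was the one Jonah gene that peaked in control replicate 1, at 25.8 CPM against at most 0.757 CPM in any other library, and it did not pass the filter.

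Among the Jonah genes, the fall depended on control replicate 3. Without that library, 0 of 16 tested Jonah genes were called in p210, 6 of 16 had a positive difference and the median log2 difference was -0.15 in place of -2.28. In T315I without that library, 3 of 16 were called (Jon99Ciii, Jon44E and Jon25Bii) and the median was -1.48 in place of -3.63, with no positive difference. Leaving out T315I replicate 2 left 1 of 17 called (Jon44E), leaving out T315I replicate 1 or 3 left 4, and leaving out p210 replicate 1 left 0 called in p210. The number called in p210 was 7 of 16 without control replicate 1. Without control replicate 3, 30.7% of all tested genes fell in p210 and 26.9% in T315I. Without T315I replicate 1, 2 or 3, 22.4%, 18.6% and 18.5% of all tested genes fell in T315I. In p210 it was 27.5% without p210 replicate 1 and 31.6% without control replicate 1.

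**Figure D4:**
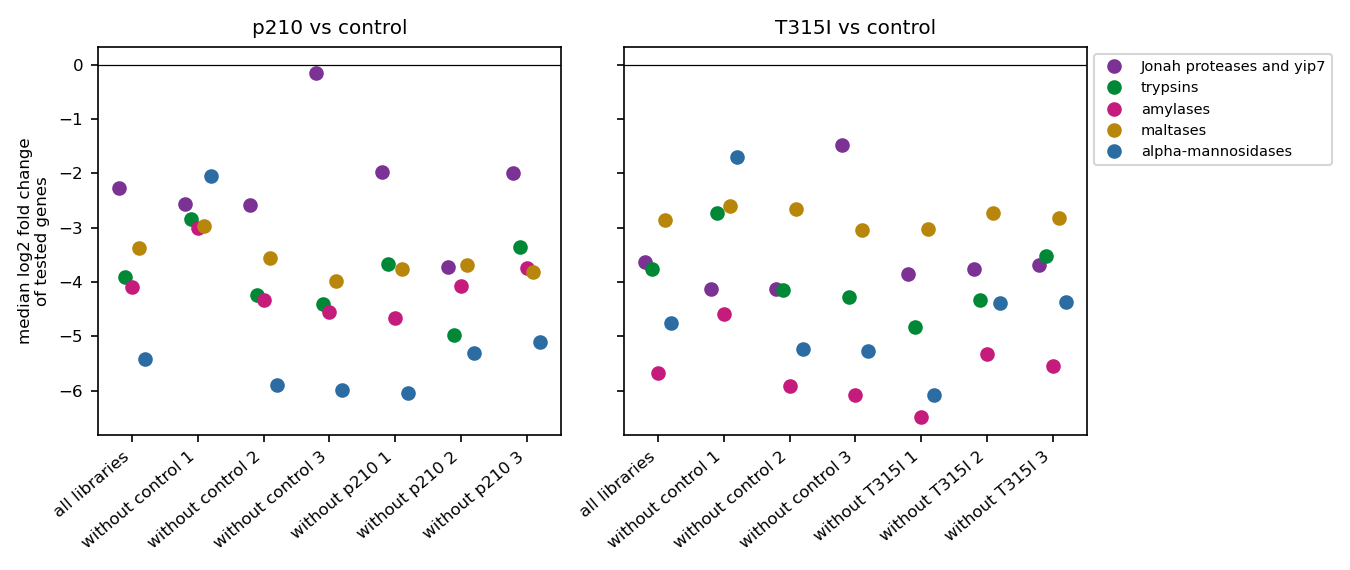
Median log2 fold change of the tested genes of each class against the control, with all libraries and with each library left out in turn, for p210 (left) and T315I (right). The Jonah median moves nearest to 0 without control replicate 3 and the alpha-mannosidase median without control replicate 1, while the trypsin, amylase and maltase medians stay below -2.

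The trypsins were low throughout and lower in both transgene groups. The 11 genes summed to 87.6, 24.5 and 16.3 CPM in the control, 2.32, 5.88 and 0.366 CPM in p210 and 4.59, 2.53 and 1.04 CPM in T315I. Every library of p210 and T315I was below every control library. The trypsin gene with the most counts, iotaTry, stood at 46.9, 7.39 and 3.60 CPM in the control, 0.961, 0.991 and 0.22 in p210 and 0.988, 0.703 and 0.131 in T315I. Neither transgene group overlapped the control, and it fell by 4.68 (SE 1.06, edgeR adjusted p = 0.0051) in p210 and fell by 4.96 (SE 1.09, edgeR adjusted p = 0.00733) in T315I on the log2 scale.

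Over all 11 trypsins, 8 were lower in p210 without overlap with the control and 8 in T315I. Of all genes with counts, 26.4% and 23.8% were. The 8 include alphaTry and betaTry, which had only 2 and 3 counts in control replicate 1 and 3 counts each in p210 replicate 2. The 6 that fell in each comparison were iotaTry, epsilonTry, thetaTry, etaTry, zetaTry and kappaTry, with log2 fold changes of -4.93 to -3.38 in p210 and -4.96 to -3.08 in T315I. All but iotaTry needed the control libraries to pass the filter. With each library left out in turn, all 6 stayed called in p210, and iotaTry, epsilonTry and zetaTry in T315I. The T315I call of thetaTry was lost without any 1 control library and without T315I replicate 2 or 3. That of etaTry was lost without control replicate 1 or T315I replicate 1 or 3, and that of kappaTry without T315I replicate 1 or 3. Of the other trypsins, deltaTry was tested and not called, with 3.69, 2.32 and 0.852 CPM in the control, 1.56 CPM in p210 replicate 2 and 1.2 CPM in T315I replicate 1. Those are the libraries in which yip7, Jon65Aiii and Jon65Aiv were also high. Counts of betaTry were 17 in the control libraries together and 0 in T315I, which makes it at least 9.89-fold lower there, taking the floor as 3 counts over the group. The most even control values were those of epsilonTry, chosen for mention after its values were seen, at 2.95, 3.09 and 3.41 CPM.

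Both amylase genes, Amy-p and Amy-d, which encode the starch-splitting enzyme, were far lower in both transgene groups. Amy-d stood at 59.0, 14.4 and 8.90 CPM in the control, 2.04, 1.35 and 0.366 in p210 and 0.565, 0.211 and 0 in T315I. Amy-p stood at 13.7, 5.40 and 2.56 CPM in the control, 0.848, 0.425 and 0.22 in p210 and 0.424, 0 and 0.391 in T315I. No library of either transgene group reached the lowest control library, and control replicate 1 was the highest of all. Amy-d fell by 4.41 (SE 0.93, edgeR adjusted p = 0.00356) in p210 and fell by 6.69 (SE 1.10, edgeR adjusted p = 0.00366) in T315I on the log2 scale. Amy-p fell by 3.77 (SE 0.86, edgeR adjusted p = 0.00507) in p210 and fell by 4.64 (SE 0.92, edgeR adjusted p = 0.00558) in T315I. Both were called with each library left out in turn, and both needed the control libraries to pass the filter. The levels in T315I are close to those of 3 counts, 0.196 to 0.212 CPM, and the split between these near-identical genes is uncertain.

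Most maltase counts came from Mal-A5, an alpha-glucosidase gene. Mal-A5 stood at 300.3, 262 and 131 CPM in the control, 26.5, 12.5 and 16.0 in p210 and 32.1, 35.4 and 34.8 in T315I. Each transgene library was below each control library, and the T315I libraries, which were close together, lay above all p210 libraries. Mal-A5 fell by 3.65 (SE 0.36, edgeR adjusted p = 0.000508) in p210 and fell by 2.76 (SE 0.34, edgeR adjusted p = 0.00178) in T315I on the log2 scale. Of the 34 genes, only LManI and LManII had smaller standard errors in these comparisons.

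Mal-A6, its neighbour, stood at 19.6, 22.7 and 8.14 CPM in the control, 2.54, 2.41 and 1.39 in p210 and 3.39, 1.06 and 2.09 in T315I. Its groups did not overlap with the control, and it fell by 2.98 (SE 0.52, edgeR adjusted p = 0.00186) in p210 and fell by 2.94 (SE 0.52, edgeR adjusted p = 0.00424) in T315I. Mal-A2 and Mal-A3 fell in both comparisons as well, with log2 fold changes of -3.92 to -2.23, and needed the control libraries to pass the filter. Both were called in p210 with each library left out in turn. In T315I the call of Mal-A3 was lost without control replicate 1 or without any 1 T315I library. That of Mal-A2 was lost without T315I replicate 3. The other 4 maltases were not tested, and without the filter 7 of 8 maltases fell in each comparison. Mal-A8 had 16 counts in the control and 0 in T315I, so it was at least 9.31-fold lower there with 3 counts over the group as the floor. Mal-A7 had 3 counts in the control and 0 elsewhere, at or under the floor in every group, and no fold is given.

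The alpha-mannosidases split into the LManI and LManII cluster and the LManIII to LManVI cluster. LManII, the gene with the most counts of all 44, stood at 1974, 1430.0 and 1021 CPM in the control, 332, 231 and 298 in p210 and 304, 413 and 365 in T315I. LManI stood at 512, 369 and 323 CPM in the control, 213, 134 and 149.9 in p210 and 178, 196 and 169.6 in T315I. For both genes every transgene library was below every control library. LManII fell by 2.36 (SE 0.25, edgeR adjusted p = 0.000619) in p210 and fell by 2.03 (SE 0.25, edgeR adjusted p = 0.00177) in T315I on the log2 scale, and LManI fell by 1.28 (SE 0.22, edgeR adjusted p = 0.00172) and fell by 1.15 (SE 0.21, edgeR adjusted p = 0.00476). Per kilobase of exon, the mean level of LManII was 406 CPM for the control, 79.0 CPM for p210 and 99.3 CPM for T315I, and that of LManI was 124, 51 and 55.8 CPM. The ratio of LManI to LManII counts was 0.258 to 0.316 in the control and 0.464 to 0.642 in the transgene groups.

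LManIII to LManVI were high in control replicate 1 above all. LManV stood at 633, 48.8 and 13.8 CPM in the control, 7.69, 2.83 and 1.98 in p210 and 10.4, 2.11 and 2.02 in T315I. LManVI stood at 532, 38.5 and 19.3 CPM in the control, 7.63, 3.97 and 1.90 in p210 and 16.2, 2.95 and 2.74 in T315I. LManIII stood at 218, 11.1 and 1.80 CPM in the control, 3.11, 0.991 and 0.732 in p210 and 5.08, 0.703 and 0.848 in T315I. For LManV and LManVI neither transgene group overlapped the control, although the transgene groups overlapped each other, whereas for LManIII control replicate 3 was below p210 replicate 1 and T315I replicate 1. In p210 the log2 fold changes were -5.76 (SE 1.43, edgeR adjusted p = 0.00752) for LManV, -5.42 (SE 1.36, edgeR adjusted p = 0.00802) for LManVI and -5.51 (SE 1.61, edgeR adjusted p = 0.016) for LManIII. In T315I they were -5.58 (SE 1.42, edgeR adjusted p = 0.0117), -4.74 (SE 1.31, edgeR adjusted p = 0.016) and -5.11 (SE 1.58, edgeR adjusted p = 0.024).

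Without control replicate 1 the median log2 difference of the tested alpha-mannosidases was -2.04 in p210 and -1.70 in T315I, in place of -5.42 and -4.74. LManIII was then called in neither comparison, at -1.91 (edgeR adjusted p = 0.123) and -1.48 (edgeR adjusted p = 0.23), and LManVI not in T315I, at -1.92 (edgeR adjusted p = 0.0764). Without T315I replicate 2 or without T315I replicate 3, LManI and LManII were called in T315I and LManIII, LManV and LManVI were not, with edgeR adjusted p of 0.0554 to 0.0963. Without p210 replicate 2 or 3, LManIII was not called in p210. With no filter or with hemocyte-marker scaling, LManIII was called in neither comparison and LManVI not in T315I, at edgeR adjusted p of 0.0591 to 0.0824. In a fit of the 2 groups, LManIII was not called in T315I (edgeR adjusted p = 0.0642). The fat body markers were also highest in control replicate 1, with sums of 97590, 62120 and 38640 CPM in the control, and muscle markers summed to 1754, 1875 and 807.5 CPM. Their part in the enzyme values was not tested. LManIV was not tested. Of its 102 control counts, 96 were in replicate 1 and 4 and 2 in the others, beside 3 counts in p210 and 6 in T315I, so no fold is given.

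The neighbours with the steadiest ratios kept their proportions across libraries in which their levels differed widely. The ratio of Jon99Cii to Jon99Ciii counts stayed between 0.704 and 1.17 in the 9 libraries, while Jon99Ciii itself spanned a 458-fold range of CPM. The ratio of LManV to LManVI stayed between 0.639 and 1.27, while LManVI spanned a 279-fold range. Other neighbours were less steady, with a 3.43-fold range of the ratio for Jon66Cii to Jon66Ci, 3.76-fold for LManIII to LManV and 6.48-fold for Mal-A6 to Mal-A5. The ratio of Amy-p to Amy-d had 0 counts on one side in T315I replicates 2 and 3, and LManI to LManII differed between groups as given above. Between the clusters, the ratio of Jon99Ciii to LManV ran from 0.0149 in control replicate 1 to 28.1 in control replicate 3. How reads with several alignments were assigned between close copies is not given in the labels, and their part in these ratios was not tested.

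**Figure D5:**
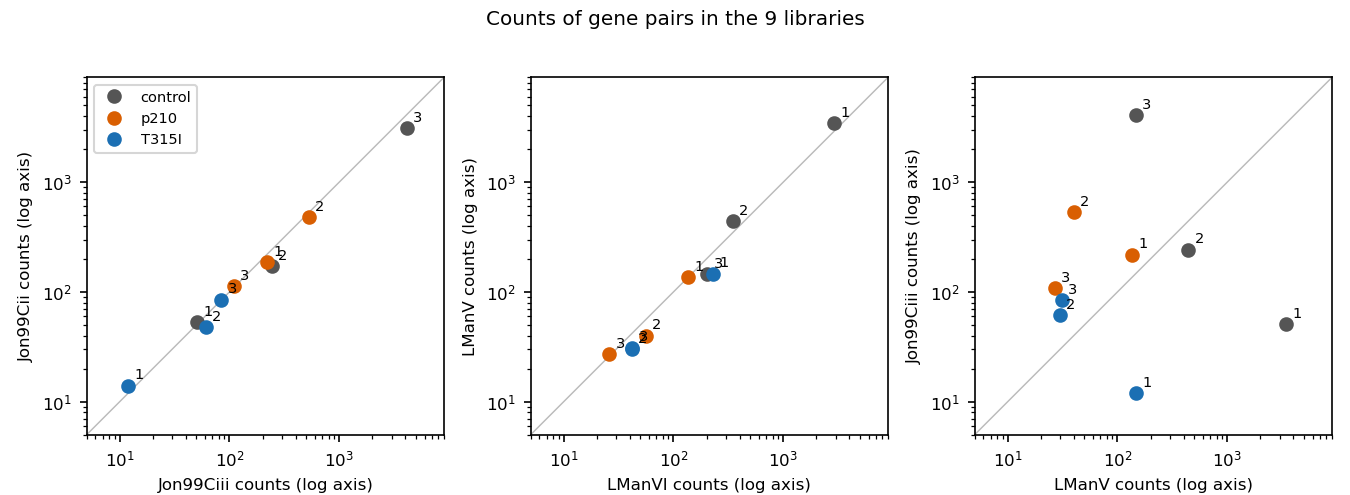
Counts of paired genes in each library (log axes, points are libraries, numbers are replicates, the grey line marks equal counts). Jon99Cii against Jon99Ciii and LManV against LManVI lie along the line, with ratios of 0.704 to 1.17 and 0.639 to 1.27, whereas Jon99Ciii against LManV scatters from 0.0149 in control replicate 1 to 28.1 in control replicate 3.

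Between the transgenes, no enzyme gene was called. Of the 34 tested genes, 0 differed in T315I against p210 by edgeR at an adjusted p under 0.05, 3 did at an unadjusted p under 0.05 (Jon44E, Mal-A5 and Jon25Biii), and DESeq2 called 0. Of all 9978 genes, 0.01% were called lower and 0% higher by edgeR. The median log2 difference of the 34 genes was -0.45, beside -0.03 over all genes. Among all 44, Jon99Ciii, Jon99Cii, Jon44E and Jon25Biii were lower in T315I with no overlap, and Mal-A5 was higher, where 6.14% and 7.99% of all genes with counts were. Jon44E differed by -5.17 (SE 1.79, edgeR adjusted p = 0.999), Mal-A5 by 0.89 (SE 0.33, edgeR adjusted p = 0.999), and the standard errors of the 34 differences reached 1.79. Differences of several-fold were not detectable where the standard error was of that size.

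Other genes listed for midgut products, not all of them enzymes, were mostly at 0 or low. Of 24 such genes in the table, 11 were at 0 in all libraries, among them the maltases Mal-B1 and Mal-B2 and the lysozyme genes LysB, LysC, LysD, LysE, LysP and LysS. Close copies such as the Lys genes can lose shared reads, so these values of 0 are not read as absence. Of the 8 tested, 4 fell in each comparison (Mur29B, Npc2d, CG8773 and Gba1b, named after their values were seen), where 30.3% of all tested genes fell in p210 and 28.7% in T315I. For Mur29B and Npc2d fewer than 3 transgene libraries reached 0.69 CPM, so their passing the filter leans on a higher control. CG8773, annotated as a peptidase, stood at 110, 18.1 and 21.8 CPM in the control, 2.43, 4.67 and 0.659 in p210 and 3.04, 4.92 and 1.96 in T315I, and it fell by 4.25 (SE 0.86, edgeR adjusted p = 0.0031) and fell by 3.90 (SE 0.84, edgeR adjusted p = 0.00697) on the log2 scale. Hexo1, a hexosaminidase gene and the one with the highest mean CPM in the list, differed by -0.53 (SE 0.22, edgeR adjusted p = 0.0635) in p210 and -0.58 (SE 0.22, edgeR adjusted p = 0.0526) in T315I. It was called lower in T315I with RLE, upper-quartile or hemocyte-marker scaling and in p210 with the last 2 of these. The alpha-glucosidase gene tobi, also named after its values were seen, rose in T315I by 1.30 (SE 0.44, edgeR adjusted p = 0.0329), a call lost when libraries were scaled to the hemocyte markers.

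Of 10 genes for chitin-binding proteins and mucins like those of the peritrophic matrix, the sheet that lines the gut lumen, 6 were tested. Over all genes tested, 30.3% fell in p210 and 28.7% in T315I. Of the 6, 5 fell in each comparison (Gasp, obst-A, obst-B, Peritrophin-A and Muc68Ca, all named after their values were seen). Of these, obst-A fell by 3.49 (SE 0.57, edgeR adjusted p = 0.00161) in p210 and fell by 3.37 (SE 0.57, edgeR adjusted p = 0.00386) in T315I. Several of these genes are also known from cuticle and trachea. The other tested gene, Peritrophin-15a, had positive differences that were not called. They were 1.17 (SE 0.48, edgeR adjusted p = 0.0614) in p210 and 0.81 (SE 0.49, edgeR adjusted p = 0.195) in T315I. Peritrophin-A and obst-B stayed below the filter's minimum of 0.69 CPM in every transgene library, so their passing leans on a higher control.

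A list of 15 genes, mostly transcription factors and signalling genes known to act on digestive enzyme genes or the midgut, had calls in both directions. Of the 13 tested, 4 rose and 5 fell in p210, where 26.9% of all tested genes rose and 30.3% fell. In T315I, 2 rose and 4 fell, where 20.5% rose and 28.7% fell. These counts are near the shares over all genes. The falls included cad, a homeobox factor of the midgut, sug, a sugar-responsive repressor, and daw, an activin-like ligand of the sugar response, all named after their values were seen. The ligand gene daw stood at 77.7, 67.8 and 60.1 CPM in the control, 7.12, 6.37 and 4.46 in p210 and 8.90, 25.9 and 12.3 in T315I, and it fell by 3.51 (SE 0.38, edgeR adjusted p = 0.000644) and fell by 2.13 (SE 0.36, edgeR adjusted p = 0.00381). The rises were foxo, bigmax, Smox and Myo31DF in p210, and Smox and Myo31DF in T315I. Smox rose by 0.52 (SE 0.125, edgeR adjusted p = 0.00646) in p210 and 0.46 (SE 0.125, edgeR adjusted p = 0.0151) in T315I. Myo31DF, an unconventional myosin of gut epithelium and no regulator of transcription, rose by 1.82 (SE 0.38, edgeR adjusted p = 0.00347) and 1.74 (SE 0.38, edgeR adjusted p = 0.00714). With libraries scaled to the hemocyte markers, Myo31DF was the only gene of the list still called higher, and 5 were called lower in each comparison.

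Among the marker lists, all 7 fat body and all 6 muscle markers fell in both comparisons by edgeR, with median log2 changes of -3.95 and -3.39 in p210 and -2.84 and -3.01 in T315I. Of the 5 tested salivary gland markers 2 fell in each (Sgs1 and Sgs3), with medians of -3.26 and -4.32, where 30.3% and 28.7% of all tested genes fell. Sgs1 stayed below the filter's minimum of 0.69 CPM in every transgene library, so its passing leans on a higher control. Of the 10 hemocyte markers, 4 rose in each (He, Ppn, NimC1 and Sr-CI) and none fell, with medians of 0.31 and 0.24, where 26.9% and 20.5% of all tested genes rose. When libraries were scaled to the hemocyte markers themselves, these medians were -0.24 and -0.25, He was no longer called in T315I, and Pxn in p210 and Col4a1 in T315I were called lower. The enzyme genes fell beside markers of fat body and muscle in the same comparisons, and the part of those tissues in the enzyme values was not tested.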

How the data were processed

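The authors deposited raw counts per gene, 1 column for each of the 9 libraries; all columns were used. The tools were HISAT2 2.1.0, featureCounts 2.0.1 and FastQC 0.11.8, with build dm6, per the submitters' processing notes. Libraries were stranded total RNA depleted of ribosomal RNA, per the labels' protocols. The annotation release, strand setting and handling of multiply aligned reads are not named there.

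The analysis used edgeR 4.0.16 under R 4.3.3 (with limma 3.58.1): filterByExpr, TMM scaling, a robust quasi-likelihood fit with 1 mean per group over all 9 libraries, two-sided tests of the 3 pairs of groups and Benjamini-Hochberg adjustment over all 9978 genes tested, with a threshold of 0.05. Approximate standard errors were obtained from F, as the size of the log2 fold change over its square root. CPM used library totals multiplied by TMM factors. All 44 genes were matched by symbol to FlyBase identifiers in the BDGP6 annotation, the assembly of dm6. No sequence is shown.

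The genes, the lists and the tests were chosen with earlier results of these data known. Genes with a mean of at least 5 CPM over all libraries, Amy-p, Amy-d and yip7 are given in full, as would be any gene called between the transgenes; other lists by counts and up to 3 abundant members. Ratios with 1 to 3 counts carry 95% intervals; these and the floors cover only counting error. No libraries were identical, and replicates differed by 13.4 to 90.7 in chi-square per degree of freedom. The tests were tried on simulated counts. Alternatives were DESeq2 1.42.0, RLE, upper-quartile and hemocyte-marker scaling, other filters, a fit of 2 groups, a replicate block and each library left out. Thinning to the smallest total and a filter of a mean of 1 CPM were added after seeing the data.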

Additional observations from a re-analysis of the deposited data

How the results depend on the processing

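Under the alternatives run, no digestive enzyme gene was called higher in either comparison with the control. With a filter of 5 CPM in 3 libraries, which left 15 of the 44 genes to test, 8 were called in p210 and 12 in T315I, and all genes called in p210 numbered 3671 in place of 5700. Scaled to the hemocyte markers, the T315I median was -4.09, and it was -4.18 with libraries thinned to the smallest total. Hemocyte-marker scaling moved the median of all genes to -0.45 in p210 and -0.49 in T315I. The share of higher calls among all genes called moved to 12.2% and 10.3%, from 47% and 41.7% (36% in p210 with upper-quartile scaling). With hemocyte-marker scaling 19 and 22 enzyme genes were called lower, where 35.6% and 35.2% of all genes were, in place of 30.3% and 28.7%.

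With each library left out in turn, 18 to 26 genes were called in p210 (medians -3.95 to -2.56), 14 to 27 in T315I (medians -4.12 to -2.60) and 0 in T315I against p210 (medians -0.98 to 0.16). These fits tested 35 to 39 of the 44 genes. Of all genes tested against the control, 26% to 31.6% fell in p210 and 18.5% to 29.8% in T315I. The count in T315I was 14 without T315I replicate 2 or without T315I replicate 3, where 18.6% and 18.5% of all genes fell. In p210 without control replicate 3 the log2 differences of 6 Jonah genes turned positive, none of them called. Over the libraries left out, they ran from -2.03 to 1.51 for Jon25Biii, -2.22 to 1.19 for Jon66Cii, -3.47 to 0.27 for Jon99Cii, -3.75 to 0.051 for Jon99Ciii, -4.02 to 1.65 for Jon99Fi and -4.09 to 1.16 for Jon99Fii. Single-gene results were followed for tested genes with a mean of at least 5 CPM and for Amy-p, Amy-d, yip7, Jon44E, Jon25Biii, epsilonTry and zetaTry. Over these, calls were lost in 21 cases for p210 and 56 for T315I, gained in 10 and 2 and unchanged in 350 and 329. Calls lost by other genes are not in these numbers, and the cause was not tested.

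Same-numbered libraries had correlations of -0.318 to 0.166 between their deviations from the group means. With 3 libraries per group these cannot show whether same-numbered libraries were prepared together, and the labels do not say that they were. With the replicate number as a block, 18, 24 and 0 genes were called in p210, T315I and between them (all genes 5299, 4125 and 1), with medians of -2.40, -3.26 and -0.39. Between the transgenes the count over all genes was 1 by edgeR, 35 by DESeq2, 2 without a filter, 6 in a fit of the 2 groups, 6 with hemocyte-marker scaling, 0 when thinned, and 0 to 4 with a library left out. Depth limits the trypsins and the low maltases, whose transgene levels are near those of 3 counts.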
